A study of Homo sapiens with 8 samples.

Results

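The 34 genes described here are a chosen set of genes linked to ATF4, the transcription factor at the centre of the amino acid response, together with 12 aminoacyl-tRNA synthetase genes. A probe belonged to the set when its RefSeq accession mapped to 1 of the listed gene symbols, older symbols such as AARS included, which gave 34 of 28850 genes tested and 39 of 42405 non-control probes. LNCaP cells, a human prostate cancer line that grows in culture, received 30 nM of an siRNA against GATA2 (siGATA2) or of a scrambled negative control siRNA (siControl) in oligofectamin. Both groups were kept in RPMI-1640 with 10% FBS, and RNA was taken 72 h after transfection. Each group had 4 replicates, each on 1 Agilent one-colour array, and all 8 arrays sat on 1 slide. A single siRNA product was set against a scrambled one in a single cell line, which limits how far the groups stand for loss of GATA2 in general. GATA2 is a zinc-finger transcription factor that binds regulatory DNA in blood-forming and prostate cells.

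When amino acids run short, uncharged tRNA activates the kinase GCN2, which phosphorylates the initiation factor eIF2. Most translation then slows while ATF4 protein is made more efficiently from its existing mRNA. ATF4 pairs with C/EBP family partners on composite DNA elements and switches on amino acid transporters, enzymes that make serine, glycine, asparagine and one-carbon units, and cytosolic tRNA synthetases, the enzymes that load each amino acid onto its tRNA. The pathway ends in feedback regulators such as TRIB3 and CHOP (DDIT3), and in growth brakes such as DDIT4 and SESN2.

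Values below are log2 intensities after quantile normalization, in which 1 unit is a 2-fold change. Each is given for the brightest probe of a gene, levels of different genes are not comparable, and errors are SD over 4 arrays for a level and SE of the limma fit for a difference. A gene was called when its adjusted p (limma, Benjamini-Hochberg over all genes) was under 0.05. The precision rests on the number of arrays. Every gene of the set was well above the array background on all 8 arrays, as were 18433 genes in all. The probes well above background numbered 34395 to 37019 on the siGATA2 arrays, and 34837, 34009, 28521 and 24261 on siControl arrays 2, 4, 1 and 3. The spiked-in E1A control RNA averaged 13.45 to 13.83 on 7 of the arrays and 11.13 on siControl array 1, which therefore stood apart before normalization. The 8 luminal prostate markers reported were all well above background on all 8 arrays, with KLK3, KLK2 and HOXB13 lower and KRT8 higher in siGATA2. Of 9 markers of fibroblast, blood or endothelial cells that were tested, 4 (COL1A1, PTPRC, CD14 and VWF) were well above background on all 8 arrays, 7 were not called, PTPRC differed by 0.87 and VWF by -0.96.

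GATA2 mRNA, the target of the siRNA, was not lower in the arrays labelled siGATA2. Its level was 12.61, 12.54, 11.57 and 11.40 on siGATA2 arrays 1 to 4, and 11.74, 11.28, 11.10 and 11.29 on siControl arrays 1 to 4. The siGATA2 mean exceeded the siControl mean by 0.68 (SE 0.312, adjusted p = 0.154 in limma). Permuting the array labels gave an exact two-sided p of 0.143, where 0.0286 was the smallest p possible. Within these arrays the target therefore gives no check of the labels, and the directions below are given as labelled. Protein was not measured on the arrays.

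Some genes of the amino acid response were lower in the arrays labelled siGATA2, with transporters and one-carbon enzymes in the lead, and most of the set was not called. Of the 34 genes, 12 were called lower (35.3%) where 14.2% of all genes tested were, and 19.6% of the genes well above background on all arrays. A single gene, VLDLR, was called higher (2.94% of the set), where 12.3% of all genes and 15% of the genes well above background were. Counted in either direction, 13 of the 34 genes were called, against 26.5% of all genes and 34.7% of those well above background. The fall reached 2-fold in 7 genes (MTHFD2, SLC7A5, SLC7A1, SLC7A11, CHAC1, PHGDH and SLC1A5), against 7.13% of all genes and 9.63% of those well above background, and the rise of VLDLR also passed 2-fold, as in 4.52% of all genes. The other 21 genes were not called. The median difference over the set was -0.27, from -3.32 for MTHFD2 to 1.50 for VLDLR, against 0.09 over all genes and 0.03 over the genes well above background. All 4 siGATA2 arrays lay below all 4 siControl arrays for 15 of the genes (16.5% of all genes and 22.8% of those well above background), and above them for VLDLR and DDIT4 (16.2% of all genes and 19.6% of those well above background). In bulk RNA, less RNA per cell and fewer cells carrying it cannot be told apart.

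**Figure D1:**
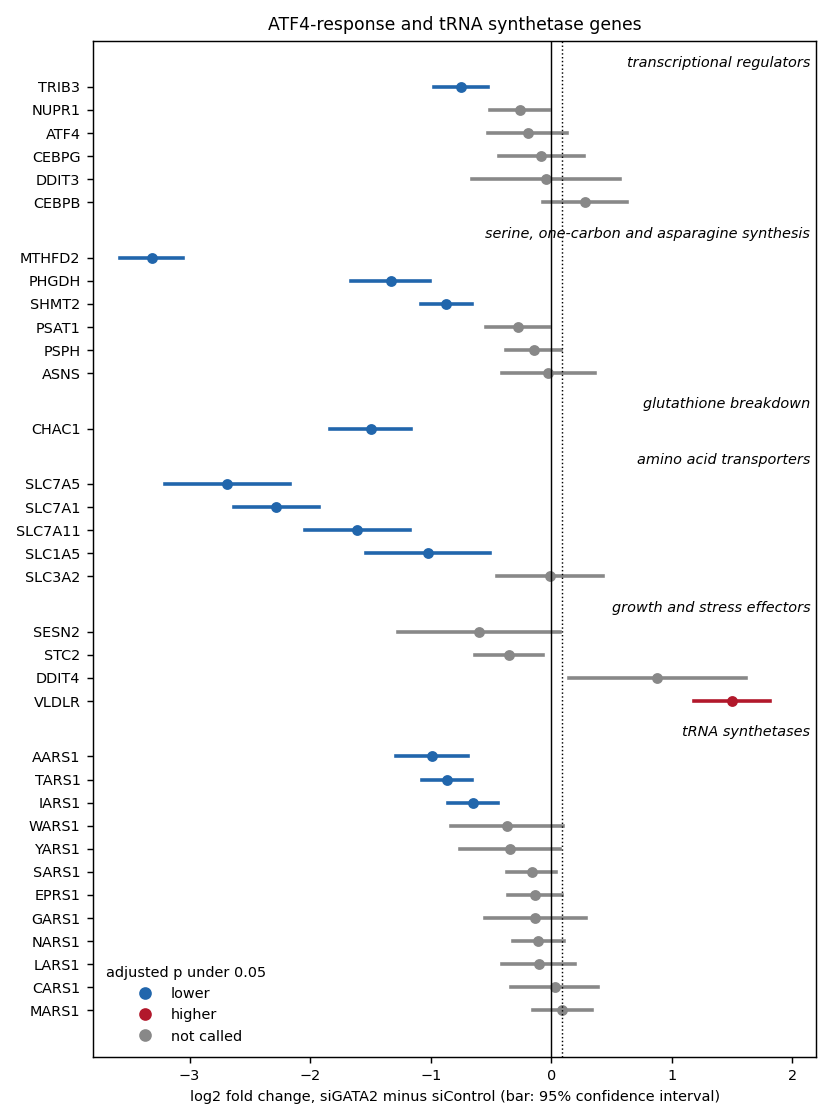
Log2 difference, siGATA2 minus siControl, for each of the 34 genes grouped by role (dots, 4 arrays per group), with bars for the 95% confidence interval from limma, blue for lower, red for higher and grey for not called. The solid line marks 0 and the dotted line the median of all genes, 0.09, and the differences run from -3.32 for MTHFD2 to 1.50 for VLDLR.

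The recognition sequence of ATF4 is shown first for the genes that carry it near their start. The 8 letters TGATGNAA are the fixed part of the C/EBP-ATF response element, and both strands of the RefSeq promoter windows were searched, each holding 250 bases before and 50 after an annotated transcription start (build GRCh38.p14, several windows for some genes). Of the 34 genes 28 matched a window, and 13 of these (46.4%) held the motif in at least 1 window, against 1217 of 27305 genes (4.46%). LARS1, NUPR1, PSPH, SHMT2, SLC7A11 and YARS1 had no window, and SHMT2 and SLC7A11 were called lower. Counted by window, the motif stood in 13 of 44 windows of the set (29.5%) and in 3.62% of all windows. It occurred in 6 of the 10 matched genes called lower and in 7 of the 17 matched genes that were not called, and not in the windows of VLDLR. Genes that fell and genes that did not both held the motif, and a match is a description of the letters and no evidence of binding. The set was chosen for its link to ATF4, so its excess of the motif over all genes cannot be separated from that choice. The excess is therefore no result of these arrays. Below, the stretch around the motif is printed in the direction of transcription with the motif in capitals. All 6 genes that fell and held it come first, then 3 of the 7 that were not called. CEBPG, GARS1, NARS1 and SLC3A2 also held it, were not called and are not printed.
CHAC1: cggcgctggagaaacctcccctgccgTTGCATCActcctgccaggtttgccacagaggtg
AARS1: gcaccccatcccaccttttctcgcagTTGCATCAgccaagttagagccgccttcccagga
SLC1A5: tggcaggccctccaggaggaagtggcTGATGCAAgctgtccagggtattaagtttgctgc
IARS1: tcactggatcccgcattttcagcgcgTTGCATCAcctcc
TARS1: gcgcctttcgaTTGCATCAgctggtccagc
SLC7A1: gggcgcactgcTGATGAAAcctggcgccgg
ASNS: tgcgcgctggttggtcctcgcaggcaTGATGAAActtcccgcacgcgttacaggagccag
MARS1: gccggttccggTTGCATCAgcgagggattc
CARS1: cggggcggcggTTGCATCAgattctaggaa

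The CHAC1 stretch lies at chr15:40953236-40953295 on the plus strand and the AARS1 stretch at chr16:70289660-70289719 on the minus strand, both upstream of the start. The SLC1A5 stretch lies at chr19:46784878-46784937 on the minus strand, upstream of 1 of that gene's annotated starts, and the IARS1 stretch at chr9:92293698-92293736 on the minus strand ends close to the start. The TARS1 stretch at chr5:33440956-33440985 on the plus strand and the SLC7A1 stretch at chr13:29595663-29595692 on the minus strand span the start, with the motif just inside the transcript. Among the genes that were not called, the ASNS stretch lies upstream at chr7:97872443-97872502 on the minus strand, the MARS1 stretch at chr12:57488053-57488082 on the plus strand and the CARS1 stretch at chr11:3057407-3057436 on the minus strand, the last 2 across the start. The motif is written TTGCATCA where it runs on the other strand. A search for GATAA, the letters of a GATA factor site, found it in PHGDH, TARS1 and SLC1A5 (10.7% of the 28 genes, all 3 called lower), against 26.6% of all genes. The E-box CACGTG stood in ATF4, IARS1, SLC1A5 and SLC7A5 (14.3%), against 8.77% of all genes. These last 2 motifs were chosen after the values were seen.

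Amino acid transporters showed the steepest fall of the role groups, with 4 of 5 called lower, all by at least 2-fold (7.13% of all genes), and a median difference of -1.61. SLC7A5 (LAT1), which carries leucine and other large neutral amino acids, measured 8.50, 8.27, 7.73 and 7.50 on the siGATA2 arrays and 10.83, 10.64, 10.57 and 10.72 on the siControl arrays. The groups did not overlap, and the level was 6.45-fold lower in siGATA2 (log2 difference -2.69, SE 0.224, adjusted p = 0.000106 in limma). SLC7A1 (CAT1), the importer of arginine and lysine, measured 11.27, 11.17, 10.77 and 10.71 against 13.36, 13.30, 13.16 and 13.22. It was 4.86-fold lower (-2.28, SE 0.152, adjusted p = 4.16e-05), again with every siGATA2 array below every siControl array. SLC7A11 (xCT), which takes up cystine in exchange for glutamate, measured 11.65, 11.46, 11.10 and 11.09 against 13.32, 12.77, 12.79 and 12.85. It was 3.05-fold lower (-1.61, SE 0.187, adjusted p = 0.000515), and siControl array 1 was the highest of the 8 arrays.

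SLC1A5 (ASCT2), the glutamine carrier, fell less and varied more among controls. It measured 9.55, 9.49, 9.37 and 9.39 in siGATA2 and 9.81, 10.52, 10.88 and 10.69 in siControl, so the gap to siGATA2 was narrowest on siControl array 1. The mean was 2.03-fold lower (-1.02, SE 0.223, adjusted p = 0.0112), at the edge of the 2-fold limit. The exception was SLC3A2, the heavy chain that SLC7A5 and SLC7A11 both need to reach the cell surface. It measured 12.70, 12.71, 12.07 and 12.02 in siGATA2 and 12.34, 12.29, 12.42 and 12.48 in siControl, with a mean difference of -0.01 (95% interval -0.45 to 0.43, adjusted p = 0.983). Its siGATA2 arrays lay on both sides of the controls, with arrays 1 and 2 above all controls and arrays 3 and 4 below them, so the mean describes none of the 4. The partner chains SLC7A5 and SLC7A11 fell on all 4 of these arrays.

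Among the enzymes of serine, one-carbon and asparagine synthesis, 3 of 6 were called lower and none higher, with a median of -0.57, where 14.2% of all genes and 19.6% of those well above background were lower. MTHFD2, the mitochondrial folate enzyme that oxidizes the one-carbon unit taken from serine, showed the deepest fall of the whole set. It measured 10.27, 10.10, 10.17 and 10.19 in siGATA2 and 13.25, 13.60, 13.56 and 13.59 in siControl, a 9.96-fold lower level (-3.32, SE 0.114, adjusted p = 1.17e-05). The distance between the groups was far wider than the spread within either. PHGDH, which catalyses the first step from glycolysis to serine, measured 13.64, 13.52, 13.35 and 13.35 against 14.49, 14.79, 14.97 and 14.94. It was 2.52-fold lower (-1.33, SE 0.141, adjusted p = 0.00032) with no overlap. SHMT2, which splits serine into glycine and a one-carbon unit inside mitochondria, measured 13.93, 13.82, 13.83 and 13.80 against 14.61, 14.74, 14.73 and 14.77. Its fall was smaller, at 1.83-fold, but tight (-0.87, SE 0.0914, adjusted p = 0.000311).

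The middle and last enzymes of the serine pathway were not called, and whether they differed from PHGDH was not tested. PSAT1, the transaminase between PHGDH and PSPH, measured 15.16, 15.09, 15.32 and 15.29 in siGATA2 and 15.29, 15.59, 15.51 and 15.58 in siControl, a difference of -0.28 (95% interval -0.54 to -0.02, adjusted p = 0.113), and the groups overlapped at siControl array 1. PSPH, the phosphatase that releases serine, differed by -0.15 (95% interval -0.37 to 0.08, adjusted p = 0.311), although its 4 siGATA2 arrays, at 14.62 to 14.84, all lay below its siControl arrays at 14.85 to 14.92. ASNS, which makes asparagine and is a standard ATF4 target, measured 15.17, 15.17, 15.32 and 15.36 against 15.58, 15.30, 14.84 and 15.40. Its difference was -0.02 (95% interval -0.41 to 0.36, adjusted p = 0.929), and its siControl arrays spanned the whole siGATA2 range.

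CHAC1, the enzyme that breaks down glutathione and a sensitive readout of ATF4, was lower. It measured 8.53, 8.70, 9.13 and 8.91 in siGATA2 and 10.22, 10.33, 10.38 and 10.35 in siControl, a 2.83-fold lower level (-1.50, SE 0.144, adjusted p = 0.000204). A second CHAC1 probe gave -1.56 with an adjusted p of 0.016 in limma, so both probes moved alike.

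**Figure D2:**
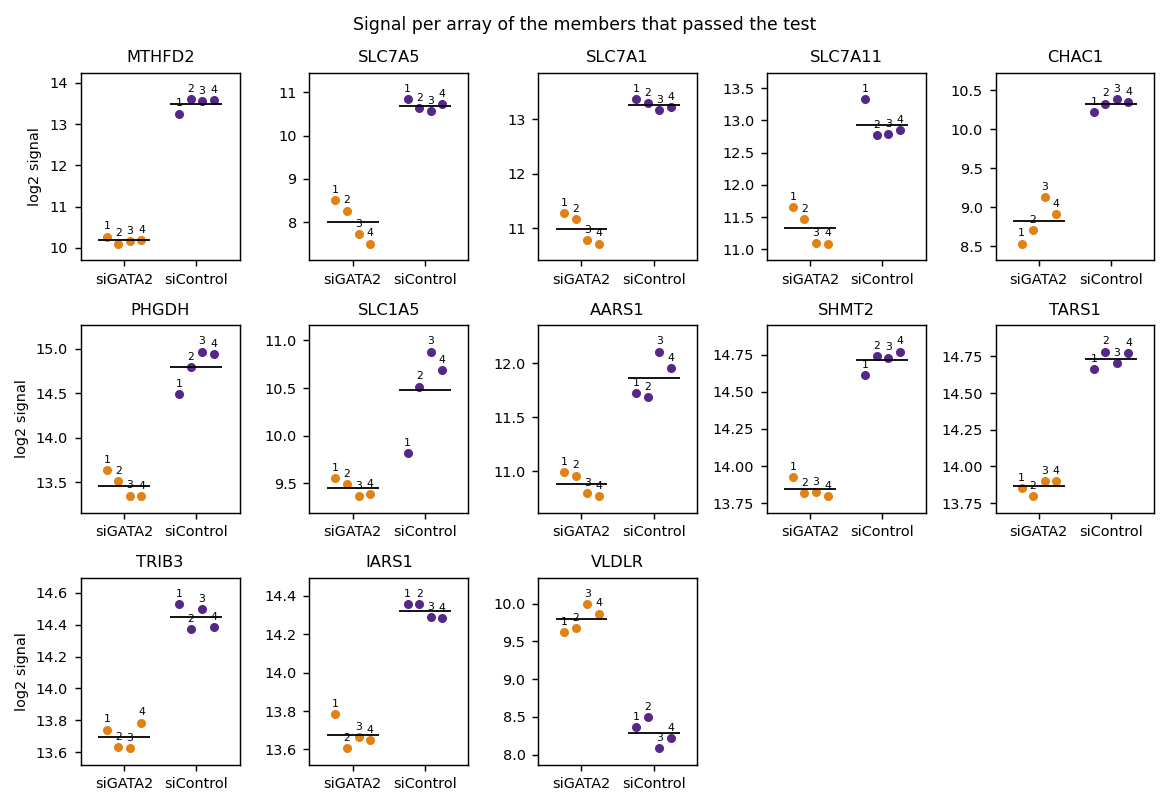
Log2 signal of the 13 called genes, 1 panel per gene, ordered from the largest fall to the rise of VLDLR. Dots are single arrays numbered 1 to 4 within siGATA2 (orange) and siControl (purple), black lines are group means, each panel has its own vertical axis, and the groups overlap in none of the panels.

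Of the 6 transcriptional regulators, 1 was called lower (16.7%) and none higher, near the 14.2% lower of all genes and 19.6% of those well above background. ATF4 mRNA itself measured 15.78, 15.82, 15.70 and 15.77 in siGATA2 and 16.34, 15.85, 15.78 and 15.88 in siControl, a difference of -0.19 (95% interval -0.52 to 0.13, adjusted p = 0.352). Only siControl array 1 lay well clear of the other 7 arrays. The arrays measured mRNA, and ATF4 is controlled largely at translation, so ATF4 protein was not read out here. TRIB3, a pseudokinase induced by ATF4 that in turn restrains it, measured 13.74, 13.63, 13.62 and 13.78 against 14.53, 14.37, 14.50 and 14.39. It was 1.68-fold lower (-0.75, SE 0.096, adjusted p = 0.000841), with the groups well apart. DDIT3, which encodes the stress factor CHOP, measured 9.20, 9.50, 9.98 and 10.00 against 9.09, 9.99, 9.91 and 9.86, with a difference of -0.04 (95% interval -0.65 to 0.57, adjusted p = 0.924).

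The C/EBP partners of ATF4 were not called. CEBPB measured 12.65, 12.78, 12.98 and 12.97 in siGATA2, and 12.93 on siControl array 1 against 12.43 to 12.45 on the other 3 controls, a difference of 0.28 (adjusted p = 0.217). CEBPG, the partner found with ATF4 in many cell types, differed by -0.08 (95% interval -0.44 to 0.27, adjusted p = 0.72). NUPR1, a small stress-induced chromatin protein, measured 15.24 to 15.48 in siGATA2 and 15.44 to 15.68 in siControl, a difference of -0.26 (95% interval -0.51 to -0.02, adjusted p = 0.11).

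Of the 12 cytosolic tRNA synthetases, 4 (AARS1, TARS1, IARS1 and SARS1) lay wholly below the controls. So did 16.5% of all genes and 22.8% of those well above background. The first 3 were called lower, none of them by 2-fold. The share called (25%) was above the 14.2% of all genes and near the 19.6% of those well above background. The median difference was -0.15. AARS1, which charges alanine, measured 10.99, 10.96, 10.80 and 10.77 in siGATA2 and 11.73, 11.69, 12.11 and 11.95 in siControl. It was 1.98-fold lower (-0.99, SE 0.129, adjusted p = 0.000953), the deepest fall among the synthetases. TARS1, which charges threonine, measured 13.85, 13.80, 13.90 and 13.90 against 14.66, 14.78, 14.70 and 14.77. It was 1.82-fold lower (-0.87, SE 0.0889, adjusted p = 0.000277), and the arrays of a group differed by little. IARS1, which charges isoleucine, measured 13.78, 13.61, 13.66 and 13.65 against 14.36, 14.36, 14.29 and 14.29, a 1.57-fold lower level (-0.65, SE 0.0908, adjusted p = 0.00135). The 3 IARS1 probes gave differences of -0.65, -0.75 and -0.60.

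The other 9 synthetases were not called. WARS1 for tryptophan and YARS1 for tyrosine had the largest of these differences, at -0.37 (adjusted p = 0.227) and -0.34 (adjusted p = 0.207), and siControl array 1 lay within the siGATA2 range for both. SARS1 for serine measured 14.60 to 14.76 in siGATA2 and 14.84 to 14.87 in siControl, a small shift of -0.16 with no overlap (adjusted p = 0.224). GARS1 for glycine and EPRS1 for glutamate and proline both differed by -0.13 (adjusted p = 0.626 and 0.342), NARS1 for asparagine by -0.11 (adjusted p = 0.423) and LARS1 for leucine by -0.10 (adjusted p = 0.597). MARS1 for methionine (0.09, 95% interval -0.15 to 0.34) and CARS1 for cysteine (0.03, 95% interval -0.33 to 0.39) had small positive differences. In the main fit the upper and lower bounds for MARS1 and CARS1 leave out a change of 2-fold either way. With scaling to the spiked-in E1A RNA a 2-fold fall is not left out, at -0.61 (SE 0.486) for MARS1 and -0.58 (SE 0.467) for CARS1. Whether the synthetases as a group differed from the transporters was not tested.

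Of the 4 growth and stress effectors, 1 was called higher and none lower (12.3% and 14.2% of all genes), while SESN2 and STC2 had negative differences. VLDLR, a lipoprotein receptor that ATF4 is known to induce, measured 9.62, 9.68, 10.00 and 9.87 in siGATA2 and 8.36, 8.49, 8.09 and 8.22 in siControl. It was 2.83-fold higher (1.50, SE 0.136, adjusted p = 0.000157) with no overlap. The VLDLR probes disagreed, since a second and dimmer probe, annotated to another transcript and well above background on 7 arrays, gave -0.34 (SE 0.182, adjusted p = 0.214 in limma). The mean over both probes was 0.58 higher, under the 2-fold limit, so the rise belongs to the brighter probe.

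DDIT4 (REDD1), which restrains mTORC1, measured 14.86, 15.04, 16.12 and 15.96 in siGATA2 and 14.18, 14.80, 14.75 and 14.75 in siControl. Every siGATA2 array exceeded every control, but the siGATA2 arrays fell into a lower and a higher pair, and the difference of 0.88 was not called (SE 0.317, adjusted p = 0.079). It was called with the replicate block (adjusted p = 0.0451) and with the title letter as a random block (0.0216), both fitted with limma. The 2 letter sets as a block (0.000399 in limma) and leaving out siGATA2 array 1 also gave a call. Under the other 20 of the 24 alternatives DDIT4 was not called. Among these it was at 0.17 with E1A scaling (adjusted p = 0.903 in limma) and 0.39 with array weights (adjusted p = 0.13). Same-numbered arrays did not pair, so the replicate block has no pairing behind it. SESN2, a leucine sensor that also restrains mTORC1, measured 9.51, 9.57, 10.21 and 10.26 against 9.79, 10.91, 10.49 and 10.75, with overlapping groups and a difference of -0.60 (95% interval -1.27 to 0.07, adjusted p = 0.175). STC2, a secreted stress glycoprotein, measured 9.85 to 10.25 in siGATA2 and 10.28 to 10.43 in siControl. Its groups did not overlap, and the difference of -0.35 just missed the threshold (SE 0.122, adjusted p = 0.0716).

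**Figure D3:**
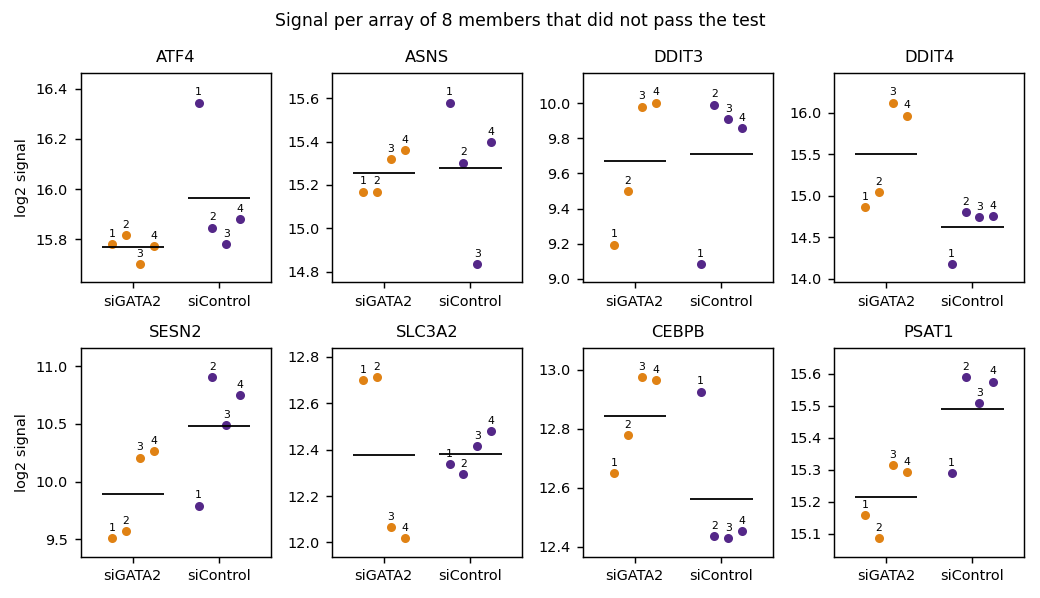
Log2 signal of 8 genes that were not called, 1 panel per gene with its own vertical axis. Dots are single arrays numbered 1 to 4 within siGATA2 (orange) and siControl (purple) and black lines are group means. In every panel siGATA2 arrays 1 and 2 both lie above or both below arrays 3 and 4, as in 79.4% of all genes.

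The siGATA2 arrays differed among themselves along the letters in their titles, whose meaning is not given. Arrays 1 and 2 carry the letters A and B, and arrays 3 and 4 the letters E and F. Arrays 1 and 2 both lay above arrays 3 and 4 in 11 of the 34 genes and both below them in 17 (82.4% together). Such a split was found in 79.4% of all genes and 87.1% of those well above background. The mean of arrays 1 and 2 differed from that of arrays 3 and 4 by over 0.5 in 5 of the 34 genes (14.7%), against 38.7% of all genes and 37.0% of those well above background. The 5 genes were DDIT4 (-1.09), SLC7A5 (0.77), SESN2 (-0.69), SLC3A2 (0.66) and DDIT3 (-0.64). Within the letters A and B the difference between the groups rests on siGATA2 arrays 1 and 2 and siControl array 1, and within D to G on the other 5 arrays. All 13 called genes kept their direction within both letter sets and within both rows of the slide. The groups overlapped in none of the 13, so this direction was fixed in advance and is no separate check. SLC3A2 differed by 0.37 within the letters A and B and by -0.35 within D to G, in opposite directions. SLC7A5 was lower within both, by -2.45 and -3.03, and DDIT4 higher within both, by 0.78 and 1.28.

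The 12 called falls held with any single array left out. With siControl arrays 1 and 3 both left out, all 12 genes were called lower and VLDLR higher. With siControl array 1 alone left out, PSAT1, SESN2, WARS1 and YARS1 were called lower as well and CEBPB higher, and with siGATA2 array 1 left out DDIT4 was called higher and STC2 lower. The scaling mattered more. When the arrays were scaled to the spiked-in E1A RNA in place of quantile normalization, the median over all genes shifted from 0.09 to -0.43. That of the set shifted to -0.97. Of the set, 8 genes were called lower and none higher, against 6.59% and 0.489% of all genes. The 4 genes that lost their call lay further down and had larger errors: IARS1 at -1.34 (SE 0.489), SHMT2 at -1.57 (SE 0.479), TARS1 at -1.56 (SE 0.483) and TRIB3 at -1.46 (SE 0.49). VLDLR was at 0.98 with an adjusted p of 0.32, and GATA2 at 0.03 with an adjusted p of 0.986. Scaled to E1A over the 7 arrays without siControl array 1, 17 genes were called lower and 1 higher, against 15.1% and 6.2% of all genes.

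Further genes of the same pathways were read from lists written with earlier results of these data in view, so their counts are descriptions. Upstream of ATF4, among 14 genes for the eIF2 kinases, the eIF2B subunits and the phosphatase subunits, 2 were lower and 1 higher. Over all genes 14.2% were lower and 12.3% higher, and of those well above background 19.6% and 15%. EIF2AK4, which encodes GCN2, fell by 0.57 (SE 0.122, adjusted p = 0.0105), and NCK1, an adaptor of the eIF2 phosphatase, fell by 0.50 (SE 0.143, adjusted p = 0.0353). PPP1R15A (GADD34), the stress-induced phosphatase subunit, rose by 0.81 (SE 0.248, adjusted p = 0.0449). No gene of this list was called higher without the filter on dim probes, with the slide row as a block, with E1A scaling on 8 or 7 arrays, without siControl arrays 1 and 3, or with any single array left out other than siControl array 1. With E1A scaling on 8 arrays none was called lower either.

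Among 21 further ATF4-linked genes, 6 fell and 3 rose (28.6% and 14.3%), against 14.2% and 12.3% of all genes. Of the genes well above background on all arrays, 19.6% fell and 15% rose. With E1A scaling 4 of the ATF4-linked genes fell and 1 rose, against 6.59% and 0.489% of all genes. In the main fit the share that rose was near that of all genes. NIBAN1, a stress-induced regulator of eIF2 phosphorylation, fell by 1.80 (SE 0.164, adjusted p = 0.000162), and MTHFD1L, the mitochondrial enzyme downstream of MTHFD2, fell by 1.75 (SE 0.194, adjusted p = 0.000416). ATF3, a stress factor that ATF4 is known to induce, rose from 13.21 ± 0.378 in siControl to 15.76 ± 0.32 in siGATA2 (SD, n = 4), a log2 difference of 2.55 (SE 0.232, adjusted p = 0.000157 in limma). SQSTM1, the autophagy receptor p62, rose by 0.99 (SE 0.168, adjusted p = 0.00354).

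Other amino acid transporters followed those of the set, with 12 of 21 lower, none called higher and a median of -0.76. Over all genes 14.2% were lower, and 19.6% of those well above background. Of the 21 transporter genes 15 were well above background on all 8 arrays. SLC1A3, a glutamate and aspartate importer, was at 6.18 ± 0.301 in siGATA2 and 9.30 ± 0.0673 in siControl (SD, n = 4), a log2 difference of -3.12 (SE 0.158, adjusted p = 1.89e-05 in limma). SLC36A1, a lysosomal amino acid exporter, fell by 2.48 (SE 0.119, adjusted p = 1.63e-05). Of 14 folate and glycine-cleavage genes, 9 fell and none rose, with a median of -0.74. This compares with 14.2% and 12.3% of all genes, and 19.6% and 15% of those well above background. MTHFD1, the cytosolic folate enzyme, fell by 1.50 (SE 0.125, adjusted p = 0.000108) and GLDC, the glycine decarboxylase, fell by 1.16 (SE 0.0979, adjusted p = 0.000113). With E1A scaling 3 folate genes and 9 of the other transporters were called lower, as were 6.59% of all genes.

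The remaining synthetases depended on the setting. Of 11 cytosolic synthetase and synthetase-complex genes outside the set, 3 were lower (27.3%) and none higher. This compares with 14.2% and 12.3% of all genes, and 19.6% and 15% of those well above background. The cytosolic genes called lower included KARS1 for lysine (-0.69, SE 0.155, adjusted p = 0.0131) and the complex subunit EEF1E1 (-0.65, SE 0.148, adjusted p = 0.014). Of 17 mitochondrial synthetases, 2 fell and 2 rose (11.8% each), near the 14.2% and 12.3% of all genes. Both shares were under the 19.6% and 15% of the genes well above background. LARS2, the mitochondrial leucine enzyme, fell by 1.49 (SE 0.12, adjusted p = 9.3e-05) and YARS2 fell by 0.51 (SE 0.131, adjusted p = 0.0238), while SARS2 rose by 0.78 (SE 0.115, adjusted p = 0.0018) and RARS2 rose by 0.51 (SE 0.128, adjusted p = 0.0219). With array weights 10 of the 11 cytosolic genes were called lower, as were 9 mitochondrial genes, and 4 mitochondrial genes higher. In that setting 26.3% of all genes were called lower and 28.0% higher. With E1A scaling none of the 11 was called, and 1 mitochondrial gene was lower and none higher (6.59% and 0.489% of all genes). Without siControl array 1 these lists had 6 and 5 genes lower, where 15.5% of all genes were.

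**Figure D4:**
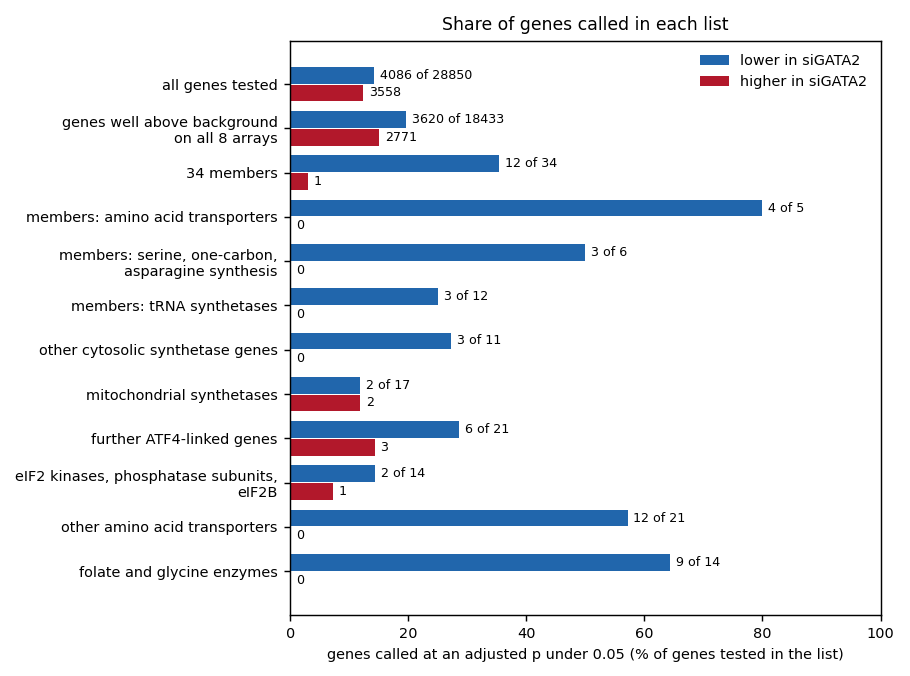
Percent of the genes tested in each list that were called lower (blue bars) or higher (red bars) in siGATA2 at an adjusted p under 0.05 in limma, with the number of genes beside each bar. The transporters of the set (4 of 5), the other transporters (12 of 21) and the folate and glycine enzymes (9 of 14) have the longest blue bars and no gene called higher.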

How the data were processed

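The members and the gene lists were chosen with earlier results of these data known. The authors deposited, for each of the 8 arrays, the spot intensity written by Agilent Feature Extraction 11.0.1.1, and a matrix of log2 values. Per the paper's methods, 100 ng of total RNA was labelled with Cy3, and signals were quantile-normalized. The deposited log2 values were used as an alternative. From the processed intensity, unflagged spots of a probe were averaged, log2 values were quantile-normalized with limma 3.58.1 in R 4.3.3, and probes that lacked annotation or averaged under 3 were dropped. Of 27244 probes with a RefSeq accession 26364 were named through RefSeq (GRCh38.p14), and each gene was read from its brightest probe. Groups were compared with lmFit and eBayes and Benjamini-Hochberg adjustment over 28850 genes. The fit was tested on simulated data over 28730 genes, of which 200 were changed. It found 29% of genes changed by 1 log2 unit and 69% of those changed by 2, with 6.67% false calls. In the real data 26.5% of all genes were called, a far larger share, so these rates do not carry over to it. P-values set the difference between the groups against the spread between arrays. Whether the 4 replicates of a group were separate transfections is not stated. The genes named are all 34 members, GATA2, the cell markers (2 of them are not reported here), and the 2 called genes with the largest fall and rise of each other list. Alternatives changed the scaling, background, filter, test, weights, blocks, probe rule and arrays, and 3 of the 24 were chosen after seeing the data. Sequences and motif searches use RefSeq windows of GRCh38.p14.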

Additional observations from a re-analysis of the deposited data

Results flagged for a closer look

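Among the genes of the set, the markers and the other named genes, 138 groups of 4 arrays were examined for an array whose gap to its nearest neighbour took nearly the whole range of the group, and chance gives about 1 such case in 20 groups. It was found in 10 groups, in 9 of them for siControl array 1, the array with the low E1A signal. Among the genes of the set these were CEBPB (12.93 against 12.43 to 12.45, gap over range 0.953), DDIT4 (14.18 against 14.75 to 14.80, 0.917), MTHFD2 (13.25 against 13.56 to 13.60, 0.881), SLC7A11 (13.32 against 12.77 to 12.85, 0.852) and DDIT3 (9.09 against 9.86 to 9.99, 0.852). The array was higher than the other controls for CEBPB and SLC7A11 and lower for DDIT4, MTHFD2 and DDIT3.

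The same array stood apart for KRT18 (16.10 against 16.03 to 16.04, 0.935), RARS2 (12.65 against 12.53 to 12.55, 0.849), COL1A1 (9.84 against 8.84 to 9.01, 0.833) and KLK2 (12.72 against 13.15 to 13.23, 0.832). EPCAM on siGATA2 array 3 was the remaining case (14.89 against 14.98 to 15.00, 0.848). For MTHFD2 and SLC7A11 the distance between siGATA2 and siControl was several times that by which this array departed, and both were called with it left out.

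Over the whole set, siControl array 1 was the outermost control for 28 of 34 genes (82.4%), above the others in 11 and below them in 17, against 76.1% of all genes and 83.3% of the genes well above background.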

How the results depend on the processing

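The 12 genes called lower remained so under each of the 24 alternatives except scaling to E1A, where 8 remained and the other 4 had larger falls (-1.34 to -1.57) with larger errors, and VLDLR kept its call under each but E1A scaling, though the mean over probes took it under 2-fold. Counts of lower and higher genes were 12 and 1 in the main fit (14.2% and 12.3% of all genes). They moved to 8 and 0 with E1A (6.59% and 0.489% of all genes, 0 higher at 2-fold). Array weights gave 22 and 2 (26.3% and 28.0% of all genes). The title letter as a random block gave 13 and 2 (17.1% and 18.5%). The title letters as a fixed block of A and B or D to G gave 15 and 2 (20.0% and 24.9%, 2 higher at 2-fold). The replicate block, which added DDIT4, gave 12 and 2 (12.9% and 11.7%). E1A scaling over 7 arrays put 12 genes lower at 2-fold and the mean over probes 0 higher. The share of all genes at 2-fold was not counted in these settings. Without the 2-fold limit, 15.1% of all genes were lower in the first and 12.3% higher in the second. Leaving out 1 array at a time gave 12 to 16 lower, 1 to 2 higher, 6 to 8 lower and 1 to 2 higher at 2-fold, and a median of -0.32 to -0.24. In these fits 11.2% to 15.5% of all genes were lower and 8.98% to 13.9% higher. Without siControl replicate 1, 16 were lower and 2 higher (15.5% and 13.9% of all genes), with CEBPB added at 0.40. Without siGATA2 replicate 1 DDIT4 was added at 1.09. The median was -0.36 with the 75th percentile, -0.97 and -0.61 with E1A on 8 and 7 arrays, and -0.42 with array weights. GATA2 was at 0.03 with E1A scaling, 0.49 to 0.89 higher with 1 array left out, 1.11 with array weights and 0.47 with the letter block, called in the last 2. The sign turned, with no call at the turned value, for DDIT3 (0.000686 with the percentile, 0.0528 random letter, 0.0212 slide row, 0.14 letter block), MARS1 (-0.00676 percentile, -0.61 and -0.24 with E1A on 8 and 7 arrays), CEBPB (-0.36 with E1A), CARS1 (-0.58 and -0.32 with E1A, -0.19 array weights, -0.0018 slide row, -0.10 without siControl arrays 1 and 3), SLC3A2 (0.20, array weights), ASNS (0.00172, random letter) and CEBPG (0.0165, slide row). With 1 array left out, the ranges were -0.17 to 0.0760 for ASNS, -0.0892 to 0.0885 for CARS1, -0.17 to 0.0137 for CEBPG, -0.25 to 0.12 for DDIT3 and -0.12 to 0.11 for SLC3A2. The causes were not tested. Same-numbered arrays did not pair (correlations 0.54, -0.31, 0.17 and 0.22). The 3 alternatives added (the letter block, siControl arrays 1 and 3 left out, and E1A on 7 arrays) were chosen after seeing the data. At 4 arrays per group, changes of 2-fold or less can go uncalled, and so can some larger ones, so a gene not called is not shown to be unaltered.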
